A study of Ictalurus furcatus with 6 samples.

Results

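Glycolysis splits glucose into pyruvate, and gluconeogenesis runs most of the same reactions backwards to make glucose. The transcripts of these enzymes were examined in testicular sperm of blue catfish (*Ictalurus furcatus*), cryopreserved or fresh-frozen. The members were chosen by gene name, without use of their values but with earlier results of these data known: hexokinases, glucose phosphate isomerase, phosphofructokinases, aldolases, triosephosphate isomerase, *gapdh*, phosphoglycerate kinases and mutases, enolases, pyruvate kinases, lactate dehydrogenases, fructose bisphosphatases, glucose phosphatases, phosphoenolpyruvate carboxykinases and phosphoglucomutases. The rule took 49 of 27416 features, of which 7 carry a name only from the eggNOG annotation in the table and 31 have a name that is also a RefSeq symbol of blue catfish. Of the 49, 43 belong to a reaction of the pathway, to its side branches or to the PFKFB enzymes that regulate it, and 6 were taken by the spelling of their names but act elsewhere. All 49 passed the filter on low values (a group mean over 1 CPM) and were tested.

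The cryopreserved group comprised C2, C3 and C5, and the fresh-frozen group comprised F2 and F3. All samples were sperm of strain D&B, taken from the testes, and the number names the male, so C2 and F2 came from male 2 and C3 and F3 from male 3. Cryopreserved sperm had been extended in a salt solution with methanol and cooled in straws at a set rate, fresh-frozen sperm had been flash-frozen without these steps, and RNA came from thawed sperm in both groups. By the paper's account, the sperm for cryopreservation were extracted from the testis tissue that remained after the flash-frozen samples were collected. Storage differed as well, so collection and storage cannot be told apart from cryopreservation here. C2 was sequenced as technical replicates, which were averaged into 1 sample. F5, the fresh-frozen sample of male 5, was not analysed here, so C5 has no partner. The males are the replicates, and 2 samples against 3 limit every test, with 0.1 as the smallest exact permutation *p*-value.

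In glycolysis, the hexokinases, phosphofructokinase and pyruvate kinase catalyse steps that hardly run backwards. Gluconeogenesis goes around them with pyruvate carboxylase, which is not among the members, phosphoenolpyruvate carboxykinase, fructose bisphosphatase and glucose phosphatase. Sperm use ATP from glycolysis and from mitochondrial respiration to beat the flagellum, and the share of each differs between species. In mammals, several steps are carried by forms of the enzymes made in the germ line, and some of these are attached to the flagellum. *gapdh* codes for the dehydrogenase in the middle of the pathway and is widely used as a reference gene in qRT-PCR, as it was in the study of these males.

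The values were taken as CPM, scaled to the total of a library and not divided by gene length, so levels are compared between samples and not between genes. They are not plain read counts times a factor. In F2, *pfkfb2a*, *ldhbb* and *pgam1* had 7.276, 7.286 and 7.300 CPM, closer together than single reads of that library would put them. Fold changes are differences in log2(CPM + 1), cryopreserved minus fresh-frozen, and the added 1 shrinks those of low features. Differences were tested with limma over the 27255 features that passed the filter, and differentially expressed genes (DEGs) were those past 2 in either direction of log2 fold change with an FDR, adjusted by Benjamini and Hochberg over all of them, under 0.05. The libraries differed in shape. The median feature was at 9.55, 15.0 and 2.03 CPM in C2, C3 and C5, against 15.7 and 15.6 CPM in F2 and F3. The features listed at 0 were 0, 0 and 2664 in C2, C3 and C5, against 537 in F2 and 99 in F3. Since the values are not plain counts, these numbers are not counts of genes without reads. The median log2 fold change of all features was -1.02 as deposited, and it was -0.16 with TMM factors, 0.03 with medians centred and -0.22 with quantile normalization. Of the members, 20 had a positive and 20 a negative fold change under all 4 scalings. The other 9 (*HK1*, the *GPI* feature AUIFUG00000022840, *pfkp*, *Aldoa*, *bpgm*, *ldhbb*, *ldha*, the *PGM1* feature AUIFUG00000006772 and *ldhd*) changed sign with the scaling, and no direction is given for them.

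Of the 49 members, 4 were upregulated DEGs in cryopreserved sperm, which is 8.16% of them against 1.54% of all features, and 0 were downregulated DEGs, against 0% of all features, in limma with the Benjamini-Hochberg FDR. The 4 were *PFKM* (phosphofructokinase), *eno4* (enolase), *ldhba* (lactate dehydrogenase) and *g6pc3* (glucose phosphatase), at 4 separate points of the pathway. In the same limma fit without adjustment, 9 members had a *p*-value below 0.05 with a log2 fold change above 2, against 5.73% of all features, and 6 had one with a log2 fold change below -2, against 9.36%. Fold changes beyond 2, with no test, were found in 9 members on the positive side, against 6.06% of all features, and in 10 on the negative side, against 19.6%. All 3 cryopreserved samples lay above both fresh-frozen samples in 15 members (30.6%, against 13.6% of all features) and below both in 18 (36.7%, against 41.7%), and the groups overlapped in 16. The median log2 fold change of the members was -0.41, and 20 of the 49 were positive (40.8%, against 25% of all features). The sign of that median depends on the scaling, since it was 0.71 with TMM factors, 0.64 with medians centred and 0.23 with quantile normalization. Relative to all features the members' median lay higher under each scaling, by 0.61 as deposited and by 0.87, 0.61 and 0.45 under these 3.

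Single libraries and the scaling moved these counts. Without C2, 0 members and 0 features in all were DEGs in limma, although 6 members had an unadjusted *p*-value below 0.05 with a log2 fold change above 2, against 3.66% of all features, and 2 with one below -2, against 1.96%. The lowest log2 fold change of the 4 genes without C2 was 3.03, in *eno4*. Without C3, 9 members were upregulated (18.4%, against 6.77% of all features) and 15 were downregulated (30.6%, against 25.6%). Without F3, *eno4* had a limma FDR of 0.062 and was not called, while *PGM2* was, which left 4 members called (8.16%, against 0.969% of all features). Without F2, and likewise without C5, *PGM2* joined the 4 (10.2%, against 1.17% of all features without F2, and without C5 against 3.1% of all features called higher and 0.0915% called lower). With TMM factors only *PFKM* and *g6pc3* were called (4.08%, against 2.01% of all features), with medians centred 0 members and 0 features in all were (12 members had an unadjusted *p*-value below 0.05 with a log2 fold change above 2, as had 2990 of all features), and with quantile normalization 8 members were (16.3%, against 5.21% of all features called higher and 0.367% called lower). With a pseudocount of 0.1 in place of 1, and with a constant prior in limma, 0 members were called, against 0.572% and 0% of all features. At an unadjusted *p*-value below 0.05, 8 and 9 members were past a log2 fold change of 2 in these limma fits, against 5.84% and 5.88% of all features. A fit with the male as a block, which rests on males 2 and 3 only, kept the 4 calls and added *PGM2* and *pkmyt1* (12.2% of the members), against 4.17% of all features called higher and 0.44% called lower. These pairs leave little to estimate the spread from, so the calls of that fit lean on the prior of limma.

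**Figure D1:**
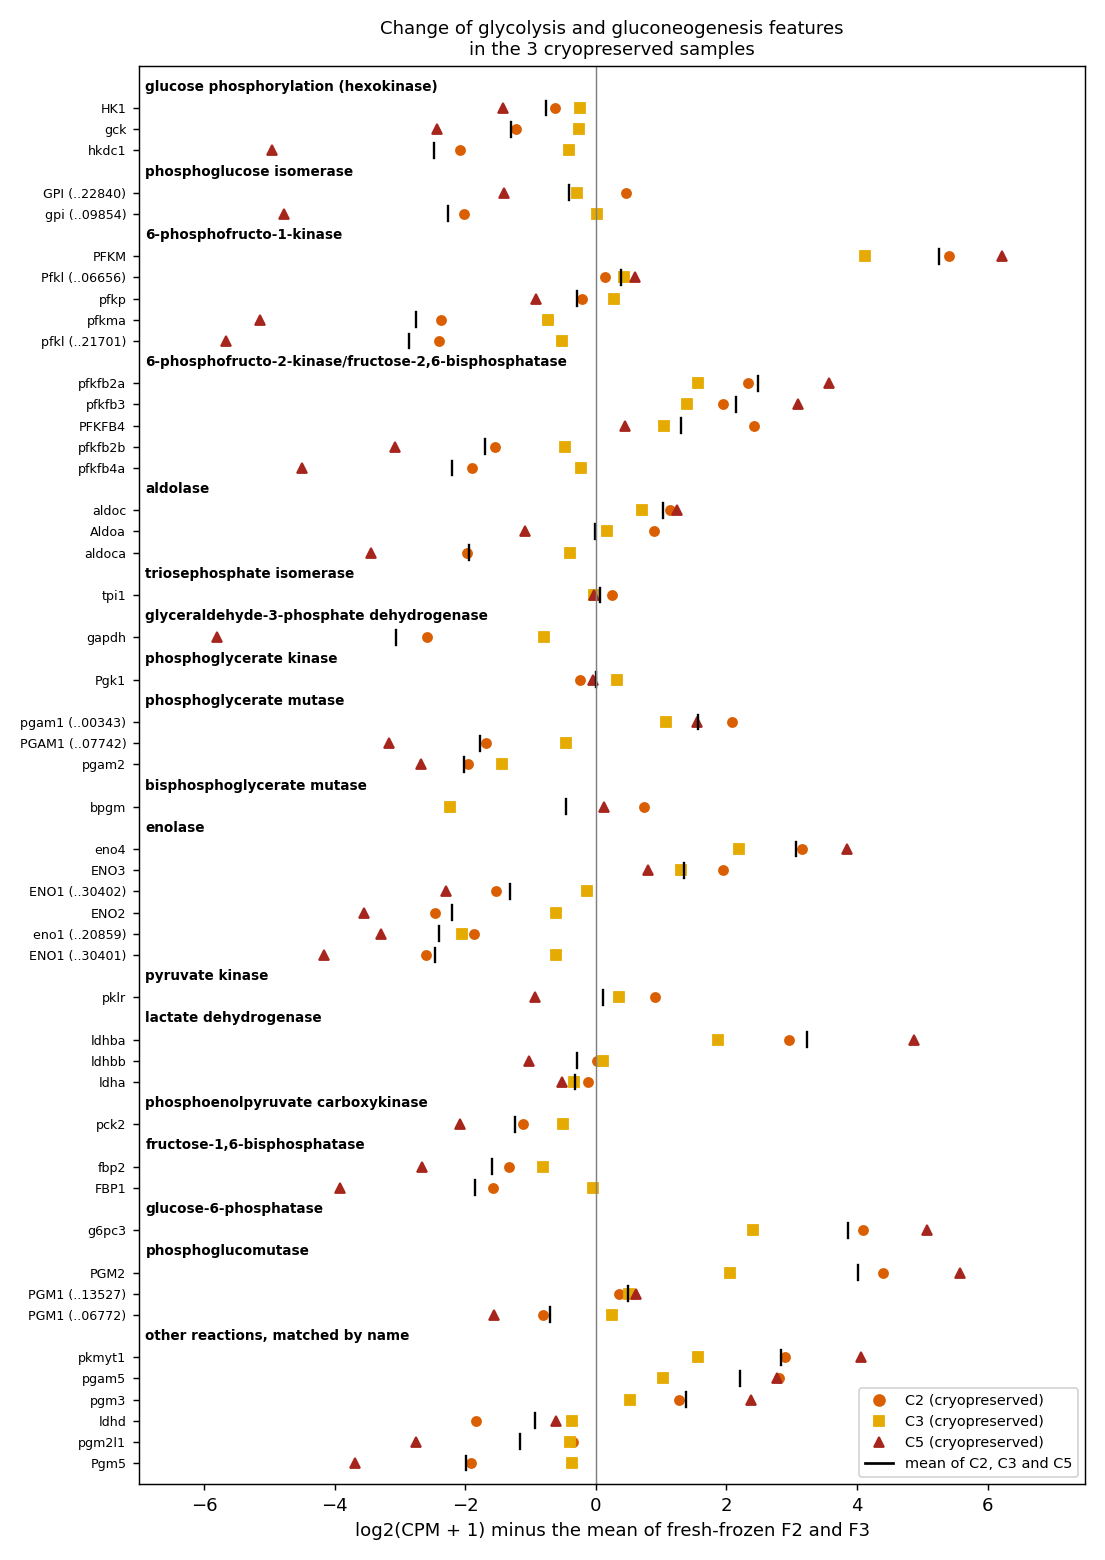
Log2 fold change (cryopreserved minus fresh-frozen, log2(CPM + 1)) of 48 members in C2, C3 and C5 (points) against the mean of F2 and F3, grouped by reaction step, with a black tick at the mean of the 3 samples. *PFKM* (5.25) and *gapdh* (-3.06) are the ends of the range as deposited, C5 is the sample farthest from 0 in 40 members, and 9 members change sign with the scaling.

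The first reaction, in which hexokinase adds phosphate to glucose, had 3 features, and none was a DEG. *hkdc1*, which codes for a protein with hexokinase domains, stood at 21.2, 70.0 and 2.03 CPM in C2, C3 and C5, against 94.0 and 92.1 CPM in F2 and F3. All cryopreserved values of *hkdc1* were below the fresh-frozen ones, C3 least and C5 most, with a log2 fold change of -2.48 (SE = 1.17, limma FDR = 0.265). *gck*, the glucokinase, was at 2.21 to 13.4 CPM against 10.9 and 24.1 CPM, and its groups overlapped. *HK1* was at 1.40 to 4.45 CPM against 3.63 and 7.99 CPM. The isomerase that makes fructose phosphate had 2 features. The *GPI* feature AUIFUG00000022840 was at 84.5, 50.1 and 22.5 CPM in C2, C3 and C5, against 71.8 and 52.3 CPM in F2 and F3. The *gpi* feature AUIFUG00000009854 had 15.1, 64.6 and 1.37 CPM, against 69.2 and 59.1 CPM, for a log2 fold change of -2.26 (SE = 1.23, limma FDR = 0.274). In both isomerase features the groups overlapped.

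Phosphofructokinase, the committed step of glycolysis, spanned the widest range of fold changes of any step. *PFKM* (AUIFUG00000030385, named by eggNOG), a muscle-type form, stood at 166, 66.9 and 292 CPM in C2, C3 and C5, against 1.07 and 6.40 CPM in F2 and F3. Every cryopreserved sample was far above both fresh-frozen samples, and the mean was 46.9-fold higher, at 175 ± 113 CPM against 3.73 ± 3.76 CPM (SD, n = 3 and 2). The ratio of the means was 31.2 without C5, 27.4 without F2 and 163 without F3. Its log2 fold change of 5.25 (SE = 0.94) was the highest of the 49 members, with a limma FDR of 0.0182. *pfkma*, the other feature named as muscle-type, went the other way in its values. It had 20.8, 67.0 and 2.20 CPM, against 113 and 112 CPM in F2 and F3. That is a log2 fold change of -2.76 (SE = 1.14, limma FDR = 0.265), which did not pass, with the groups apart. The liver-type *pfkl* (AUIFUG00000021701) was at 43.9, 164 and 3.70 CPM in C2, C3 and C5, against 270 and 208 CPM in F2 and F3, with a log2 fold change of -2.86 (SE = 1.18, limma FDR = 0.265). A further liver-type feature, *Pfkl* (AUIFUG00000006656), differed little, with 55.0 to 75.9 CPM against 43.7 and 56.6 CPM. *pfkp*, the platelet-type form, was at 91.4 to 210 CPM against 165 and 183 CPM. Both of these overlapped between the groups. Within a library, *PFKM* stood at log2 distances of 1.31, -0.59 and 3.22 from the mean of the 5 phosphofructokinase features in C2, C3 and C5, against -4.71 and -3.27 in F2 and F3. This ratio, in which the scaling of the library cancels apart from the pseudocount, differed by 5.30, with an exact two-sided permutation *p*-value of 0.1. Such distances sum to 0 over the features of a step, so a rise of 1 lowers those of the others, and they are given here for the features that stand higher.

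The PFKFB enzymes make and break down fructose-2,6-bisphosphate, which activates phosphofructokinase and is not the bisphosphate that aldolase cuts. They so set the pace of glycolysis without being a step of it. Of their 5 features, 3 were higher in every cryopreserved sample, against 13.6% of all features. The other 2 were lower in every one, against 41.7% of all features, and none was a DEG. *pfkfb2a* stood at 51.8, 29.7 and 123 CPM in C2, C3 and C5, against 7.28 and 12.2 CPM in F2 and F3, for a log2 fold change of 2.49 (SE = 0.90, limma FDR = 0.265). *pfkfb3* had 91.7, 62.3 and 205 CPM, against 21.5 and 24.8 CPM, for a log2 fold change of 2.15 (SE = 0.76, limma FDR = 0.265). C5 was the highest and C3 the lowest cryopreserved sample in both. *PFKFB4* averaged 16.7 ± 13.0 CPM in cryopreserved and 5.16 ± 1.65 CPM in fresh-frozen sperm (SD, n = 3 and 2). *pfkfb4a*, in contrast, was at 40.9, 133 and 5.86 CPM in C2, C3 and C5, against 171 and 141 CPM in F2 and F3, for a log2 fold change of -2.21 (SE = 1.06, limma FDR = 0.265). In *pfkfb4a* C3 came close to F3, and C5 was far below. *pfkfb2b* was at 10.4 to 67.9 CPM against 98.0 and 91.4 CPM. Set against the mean of the 5 features in each library, *pfkfb2a* differed by 2.08 and *pfkfb3* by 1.74, with an exact permutation *p*-value of 0.2 for each.

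**Figure D2:**
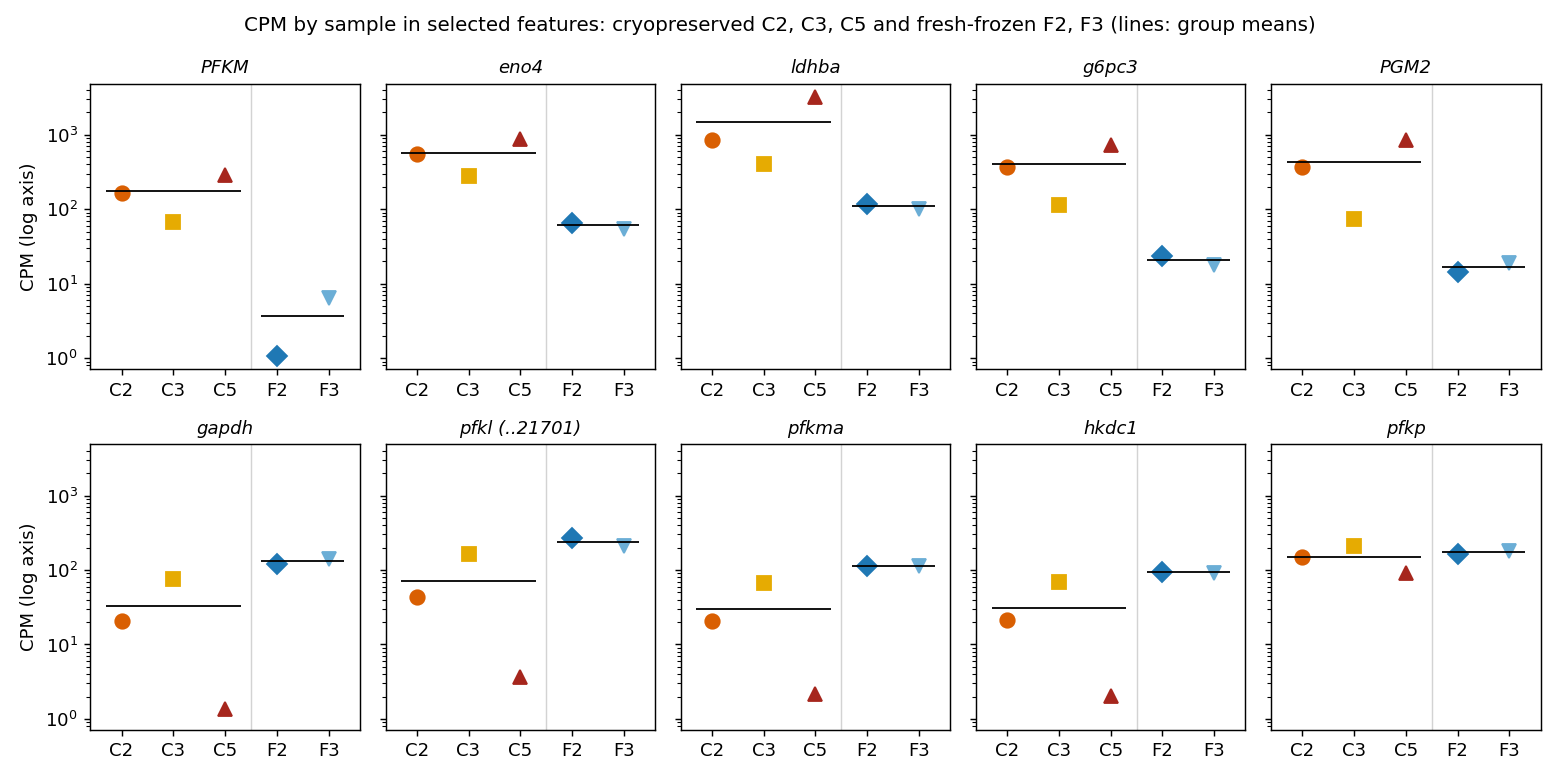
CPM by sample on a log axis for 10 selected features, with cryopreserved C2, C3 and C5 left of fresh-frozen F2 and F3 in each panel and lines at the group means. *PFKM*, *eno4*, *ldhba* and *g6pc3* have all cryopreserved points above the fresh-frozen ones, while *gapdh* has 20.8, 75.3 and 1.37 CPM against 121 and 142 CPM.

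Aldolase cuts fructose bisphosphate into triose phosphates. Its feature with the highest mean in either group, *aldoc*, stood at 116, 85.8 and 125 CPM in C2, C3 and C5, against 56.1 and 48.8 CPM in F2 and F3. The groups of *aldoc* did not overlap, and the log2 fold change was 1.03 (SE = 0.63, limma FDR = 0.301). Of the others, *Aldoa* was at 1.04 to 6.95 CPM against 2.91 and 3.74 CPM, and *aldoca* was at 0.536 to 11.7 CPM against 18.6 and 13.3 CPM. Triosephosphate isomerase converts the triose phosphates into each other, and phosphoglycerate kinase makes the first ATP of glycolysis. *tpi1* was at 60.3, 50.1 and 49.8 CPM in C2, C3 and C5, against 59.4 and 43.7 CPM in F2 and F3. *Pgk1* had 54.0, 80.3 and 62.5 CPM, against 61.2 and 67.6 CPM. The log2 fold changes were 0.06 (SE = 0.71, limma FDR = 0.955) for *tpi1* and 0.01 (SE = 0.67, limma FDR = 0.994) for *Pgk1*, and the groups overlapped in both.

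*gapdh* (AUIFUG00000007949), the only feature of that name, lies between these enzymes in the pathway. It was at 20.8, 75.3 and 1.37 CPM in C2, C3 and C5, against 121 and 142 CPM in F2 and F3. Every cryopreserved value was under both fresh-frozen values, C3 the closest and C5 the farthest. The mean was 32.5 ± 38.3 CPM in cryopreserved sperm and 131 ± 14.9 CPM in fresh-frozen sperm (SD, n = 3 and 2). The log2 fold change of -3.06 (SE = 1.23) did not pass, with a limma FDR of 0.265, but it was the lowest of the 49 members, and 0.888% of all features had a lower one. Without C3 the log2 fold change was -4.20, with a limma FDR of 0.00424. Without C5 it was -1.69, and over the other settings the FDR ran up to 0.718.

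*gapdh* was then set against its own pathway, where the scaling of a library cancels apart from the pseudocount. Its log2 distance from the median of the other 48 members was -0.58, 0.58 and -2.24 in C2, C3 and C5, against 1.92 and 2.18 in F2 and F3. The mean was -0.75 ± 1.42 in cryopreserved sperm and 2.05 ± 0.18 in fresh-frozen sperm, and the difference of -2.80 had an exact two-sided permutation *p*-value of 0.2, although the groups did not overlap. Over the 42 other members that belong to a pathway step, the difference was -2.72. When each member was expressed relative to *gapdh* of the same library, as a reference gene is used in qRT-PCR, all cryopreserved samples lay above both fresh-frozen samples in 41 of the 49 (83.7%) and below in 0. The 49 include *gapdh*, which cannot differ from itself. The same held for 66.6% and 0.0147% of all features, so most transcripts, and not only the members, were higher relative to *gapdh*. The median log2 fold change of the other 48 members was 2.69 relative to *gapdh*, against -0.37 relative to the library total. Relative to *gapdh*, *tpi1* and *Pgk1* had log2 fold changes of 3.12 and 3.07, against 0.06 and 0.01 in CPM. Such values are the fold changes in CPM with the -3.06 of *gapdh* taken off. They are positive in all 48 because *gapdh* is the lowest member, and they hold no further evidence on the members.

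**Figure D3:**
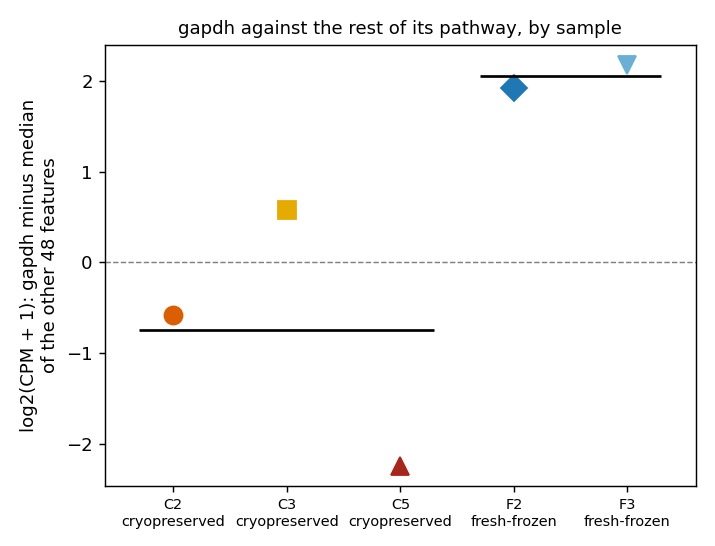
Log2(CPM + 1) of *gapdh* minus the median of the other 48 members by sample, with cryopreserved C2, C3 and C5 left of fresh-frozen F2 and F3 and lines at the group means. The points lie at -0.58, 0.58 and -2.24 in C2, C3 and C5, against 1.92 and 2.18 in F2 and F3.

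The phosphoglycerate mutases, which move the phosphate along the carbon chain, also had features with the groups apart in both directions. *PGAM1* (AUIFUG00000007742) stood at 24.6, 59.6 and 8.20 CPM in C2, C3 and C5, against 76.9 and 87.0 CPM in F2 and F3, for a log2 fold change of -1.77 (SE = 0.91, limma FDR = 0.268). The other feature of that name, *pgam1* (AUIFUG00000000343), was at 10.8 to 22.6 CPM against 7.30 and 2.74 CPM, with the groups apart in the opposite direction. The muscle form *pgam2* had 0.644 and 1.35 CPM in C2 and C3 and was listed at 0 in C5, against 6.56 and 4.40 CPM in F2 and F3. *bpgm*, whose product lowers the oxygen affinity of haemoglobin in red cells of mammals, had 7.91, 0.136 and 4.80 CPM, against 10.2 and 1.54 CPM. In *bpgm* male 3 was lower than male 2 in both groups, and the groups overlapped.

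Enolase, the next enzyme, makes phosphoenolpyruvate. *eno4* (AUIFUG00000012457) codes for an enolase that mouse sperm need for normal motility. It was at 546, 281 and 887 CPM in C2, C3 and C5, against 66.3 and 55.1 CPM in F2 and F3. *eno4* rose in every cryopreserved sample, by 2.20 to 3.85 on the log2 scale over the fresh-frozen mean. The mean was 9.41-fold higher, and the log2 fold change was 3.07 (SE = 0.56, limma FDR = 0.0198). *ENO3*, named for the muscle form, was at 12.1 to 27.7 CPM against 5.09 and 8.20 CPM, again with all cryopreserved samples above. The other 4 enolase features were below fresh-frozen sperm in every cryopreserved sample, as were 41.7% of all features, and none of them was a DEG. The *ENO1* feature AUIFUG00000030401 stood at 18.3, 76.0 and 5.53 CPM in C2, C3 and C5, against 120 and 113 CPM in F2 and F3, with a log2 fold change of -2.46 (limma FDR = 0.265). *ENO2*, named for the neuronal form, was at 3.70 to 35.1 CPM against 53.9 and 54.2 CPM. The *ENO1* feature AUIFUG00000030402 was at 1.88 to 11.8 CPM against 13.8 and 12.4 CPM, and the *eno1* feature AUIFUG00000020859 was at 0.0638 to 1.87 CPM against 10.6 and 8.38 CPM. Reads of like-named copies such as these, and those of *GPI*, *PFKL*, *PGAM1* and *PGM1*, could have been misplaced or lost in the mapping and counting, which was not tested. Relative to the mean of the 6 enolase features of a library, *eno4* differed by 3.73 (exact permutation *p*-value of 0.2) and *ENO3* by 2.01 (0.1).

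*pklr*, a pyruvate kinase of the liver and red cells and the only pyruvate kinase among the members, was at 11.8, 7.64 and 2.54 CPM in C2, C3 and C5, against 4.73 and 7.03 CPM in F2 and F3, and the groups overlapped. Lactate dehydrogenase interconverts pyruvate and lactate, and its B form favours the use of lactate. *ldhba* (AUIFUG00000024141) stood at 854, 402 and 3256 CPM in C2, C3 and C5, against 118 and 101 CPM in F2 and F3. *ldhba* rose in every cryopreserved sample, least in C3 and most in C5. Its log2 fold change was 3.23 (SE = 0.68, limma FDR = 0.0399), and the mean was 13.7-fold higher, or 5.71-fold without C5. The copy *ldhbb* was at 2.89 to 7.54 CPM against 7.29 and 6.52 CPM, and *ldha* was at 25.8 to 34.5 CPM against 30.2 and 46.5 CPM, with the groups overlapping in both. Within a library, *ldhba* differed by 2.36 (exact permutation *p*-value of 0.2) from the mean of the 3 features.

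**Figure D4:**
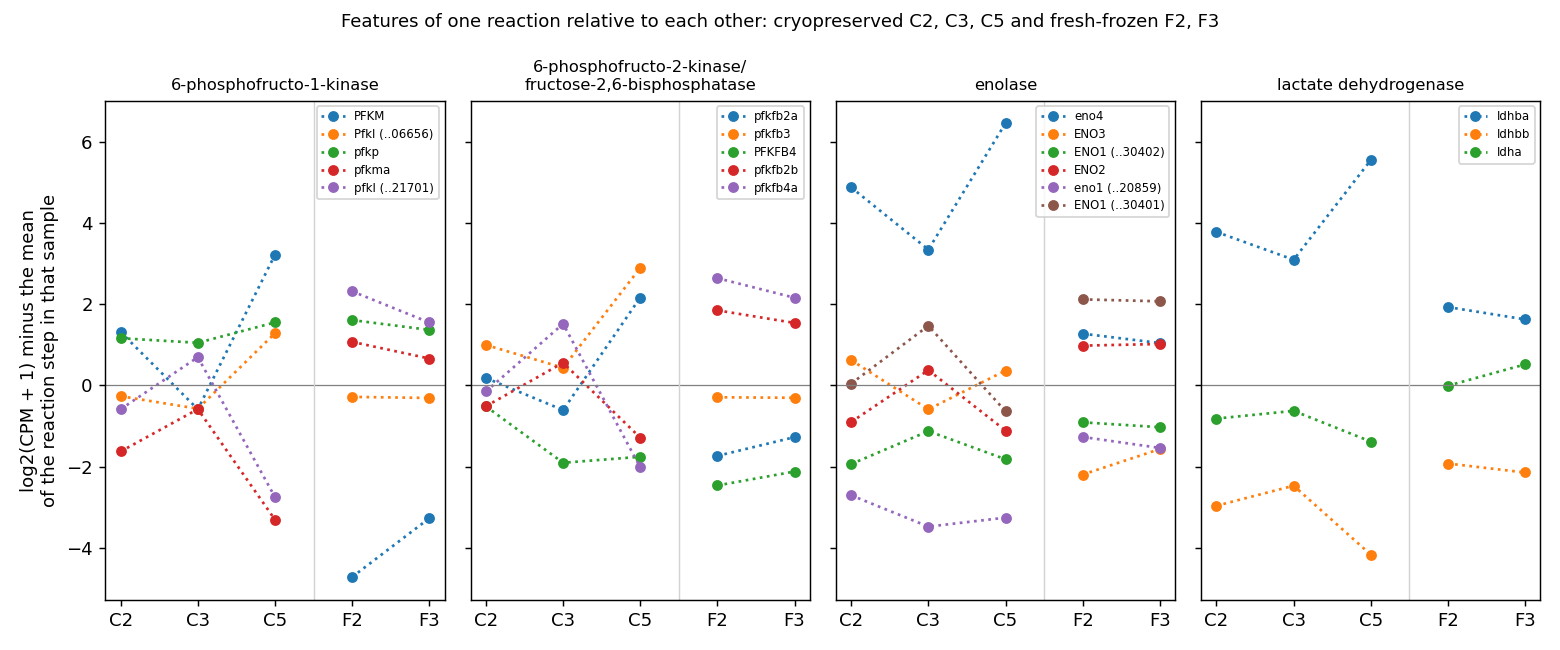
Log2 distance of each feature from the mean of its step in the same library, for phosphofructokinase, PFKFB, enolase and lactate dehydrogenase, C2, C3 and C5 left of F2 and F3, with dotted lines only to tie the points of a feature together. The mean distance of *PFKM*, *eno4* and *ldhba* from their step is higher in cryopreserved sperm by 5.30, 3.73 and 2.36.

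Of the 4 members named for enzymes with which gluconeogenesis goes around glycolysis, 1 was an upregulated DEG, against 1.54% of all features. Pyruvate carboxylase is not among them and is counted with the neighbouring pathways. As a downregulated DEG, 0 were called, against 0% of all features. *pck2* and *fbp2* were below fresh-frozen sperm in every cryopreserved sample, as were 41.7% of all features. *g6pc3* (AUIFUG00000014752), a glucose phosphatase of the endoplasmic reticulum found in most tissues, was at 365, 113 and 719 CPM in C2, C3 and C5, against 23.7 and 17.7 CPM in F2 and F3. *g6pc3* rose in all 3 cryopreserved samples, with a 19.3-fold higher mean (11.5-fold without C5) and a log2 fold change of 3.85 (SE = 0.77, limma FDR = 0.0304). The other 3 of these 4 members did not pass the test. *pck2*, the mitochondrial carboxykinase, stood at 36.4, 56.0 and 18.2 CPM in C2, C3 and C5, against 78.7 and 81.3 CPM in F2 and F3, for a log2 fold change of -1.23 (SE = 0.77, limma FDR = 0.307). *FBP1*, a fructose bisphosphatase, had 10.9, 33.7 and 1.36 CPM, against 40.1 and 29.9 CPM, for a log2 fold change of -1.84 (SE = 1.16, limma FDR = 0.306). C3 lay among the fresh-frozen values of *FBP1*, whereas the groups of *pck2* were apart. *fbp2*, named for the muscle form, was at 1.54 to 8.19 CPM against 17.1 and 13.3 CPM.

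Phosphoglucomutase links glycolysis with glycogen and with other sugars. *PGM2* (AUIFUG00000001424), which in humans acts mainly on ribose phosphates, was at 375, 73.0 and 847 CPM in C2, C3 and C5, against 14.6 and 19.2 CPM in F2 and F3. Its log2 fold change of 4.02 (SE = 0.91) was the second highest of the members, but the limma FDR of 0.0525 was just outside the threshold. With the male as a block the log2 fold change of *PGM2* was 3.23, from differences of 4.59 in male 2 and 1.87 in male 3. The *PGM1* feature AUIFUG00000013527 stood at 76.7, 85.7 and 92.0 CPM in C2, C3 and C5, against 71.4 and 50.2 CPM in F2 and F3, and the *PGM1* feature AUIFUG00000006772 was at 10.1 to 37.7 CPM against 32.1 and 31.1 CPM. Of the 6 members taken by spelling alone, *pkmyt1*, a kinase that holds back entry into mitosis, had 260, 103 and 580 CPM, against 27.7 and 41.6 CPM. It had a log2 fold change of 2.84 (SE = 0.74) with a limma FDR of 0.103. In the fit with the male as a block the log2 fold change of *pkmyt1* was 2.23, from differences of 3.19 in male 2 and 1.28 in male 3. *pgam5*, a protein phosphatase of mitochondria, was at 39.6, 10.8 and 38.7 CPM in C2, C3 and C5, against 6.93 and 3.21 CPM in F2 and F3. *Pgm5*, a relative of the mutases found at cell junctions, had 20.2, 61.0 and 5.19 CPM, against 82.7 and 74.5 CPM. The sugar mutase *pgm3* was at 51.7 to 189 CPM against 43.7 and 29.2 CPM, above fresh-frozen sperm in every cryopreserved sample. *pgm2l1*, which makes a glucose bisphosphate, was at 5.53 to 33.8 CPM against 39.7 and 47.0 CPM, and the D-lactate dehydrogenase *ldhd*, whose sign turns with the scaling, was at 4.25 to 13.5 CPM against 18.9 and 16.6 CPM.

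The cryopreserved samples differed from fresh-frozen sperm to different degrees. Against the fresh-frozen mean, 39 of the 49 members had the same sign in C2, C3 and C5. The difference was largest in C5 in 40 members and smallest in C3 in 37. The median member differed by -0.21 in C2, -0.02 in C3 and -1.02 in C5, against -0.74, -0.21 and -1.93 for the median of all features. Within males, C2 minus F2 and C3 minus F3 had the same sign in 41 members. These counts were not made over all features, whose median also moved most in C5 and least in C3. They are therefore not shown to be particular to the members. The summed CPM of the members was 4039, 3036 and 7847 in C2, C3 and C5, against 2513 and 2371 in F2 and F3, of which *ldhba* alone made up 854, 402 and 3256 CPM, against 118 and 101 CPM. F2 and F3 differed from each other by a median of 0.34 on the log2 scale over the members, and C3 and C5 by 1.85. In bulk samples such as these, fewer cells of a type and less RNA per cell cannot be told apart.

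**Figure D5:**
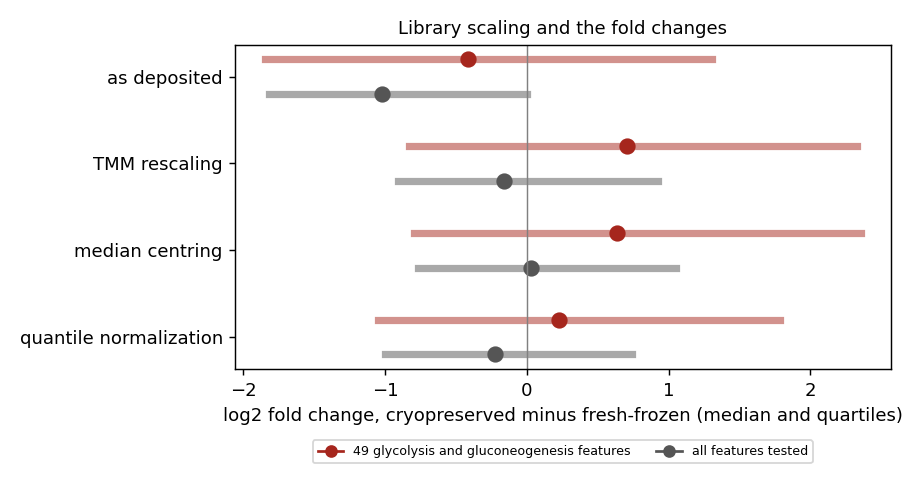
Median (point) and quartiles (bar) of the log2 fold change, cryopreserved minus fresh-frozen, of the 49 members (red) and of all features tested (grey) under 4 scalings of the libraries (as deposited, TMM, median centring, quantile). The median of the members is -0.41, 0.71, 0.64 and 0.23 and that of all features is -1.02, -0.16, 0.03 and -0.22, and 9 members change sign between scalings.

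Neighbouring pathways were counted from lists of named genes in the same limma fit, in which 1.54% of all features were upregulated and 0% downregulated. Of 29 features for glucose and lactate transport, 1 was upregulated and 0 were downregulated, with a median log2 fold change of -1.05. The upregulated one was the *slc16a7* feature AUIFUG00000005539, named for a carrier of pyruvate and lactate. It stood at 267, 105 and 545 CPM in C2, C3 and C5, against 20.4 and 24.8 CPM in F2 and F3. Its log2 fold change was 3.41 (SE = 0.75, limma FDR = 0.0467). A further *slc16a7* feature, AUIFUG00000006625, went the other way and was not a DEG. Its cryopreserved values of 13.8 to 24.2 CPM lay below the 34.6 and 28.7 CPM of F2 and F3. That is a log2 fold change of -0.72 (SE = 0.84, limma FDR = 0.559). Of 18 features for the entry of other sugars and glycerol phosphate, 1 was upregulated and 0 were downregulated, with a median of -0.60. This was *galk2*, a sugar kinase, with 195, 83.6 and 305 CPM, against 15.0 and 5.77 CPM, and a log2 fold change of 4.05 (SE = 0.81, limma FDR = 0.0304). A further list of 21 features covered the pyruvate dehydrogenase complex with its regulators, the mitochondrial pyruvate carriers (*mpc1*, *mpc2*) and pyruvate carboxylase (*PC*). In this mixed list 3 were upregulated and 0 downregulated, with a median of -0.83. The 3 were *pdha1a*, *pdha1b* and *pdhb*, subunits of the first enzyme of the complex, which passes pyruvate on to the citric acid cycle. *pdhb* had 547, 275 and 1070 CPM, against 70.3 and 53.5 CPM, with a log2 fold change of 3.13 (SE = 0.59, limma FDR = 0.0233). The *PC* features had log2 fold changes of -2.50 to -0.86, and none was a DEG. In limma, 0 features were called among 31 for glycogen metabolism, with a median of -1.15, or among 14 of the pentose phosphate pathway, with a median of -0.42, beside -1.02 for all features. Without adjustment, 3 glycogen features had a *p*-value below 0.05 with a log2 fold change below -2 in limma, a share near the 9.36% of all features, and 1 feature of the pentose phosphate pathway lay past the fold in each direction.

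Marker genes were read beside the members, from lists also chosen with earlier results of these data known. Of 18 markers of the sperm flagellum, 7 were upregulated, against 1.54% of all features. All cryopreserved samples lay above both fresh-frozen samples in 15 of them, against 13.6% of all features, and below both in 2, *dnah1* and *tekt3*, against 41.7%. Their summed CPM was 7682, 3938 and 14553 in C2, C3 and C5, against 932 and 964 in F2 and F3. Of the sums in F2 and F3, *dnah1* made up 236 and 267 CPM and *tekt3* 166 and 195 CPM. The median marker was at 237, 144 and 476 CPM in C2, C3 and C5, against 28.1 and 27.3 CPM in F2 and F3. Among the cryopreserved samples C5 was the highest and C3 the lowest, as in *PFKM*, *eno4*, *ldhba* and *g6pc3*. The order is not particular to flagellum markers. It was also that of *PGM2*, *pkmyt1* and *pfkfb3*, of the leukocyte marker *lcp1* and of the muscle markers *acta1a* and *TNNC2*. Other raised features, such as *pgam1* and *ENO3*, were highest in C2. Of the 14 markers of germ cells before spermiogenesis, 11 of Sertoli and Leydig cells, 10 of liver, 25 of skeletal muscle, 7 of erythroid cells, 11 of leukocytes and 11 of lens and retina, 0 were DEGs in limma. With an unadjusted *p*-value below 0.05 and a log2 fold change past 2, 2 muscle markers were higher and 6 lower, against 5.73% and 9.36% of all features, and no other of these lists had more than 2 in either direction. Summed markers of Sertoli and Leydig cells were at 118, 195 and 19.4 CPM in C2, C3 and C5, against 227 and 229 CPM in F2 and F3. Those of liver were at 68.7, 171 and 7.58 CPM, against 227 and 217 CPM, and those of lens and retina at 67.2, 156 and 14.0 CPM, against 245 and 243 CPM. Few features carried these sums. In F2, *sox9* made up 108 CPM of the first, *f2* and *FGG* 115 and 84.9 CPM of the second, and *PDE6A* 120 CPM of the third. All cryopreserved samples lay below both fresh-frozen samples in 3 of 11, 2 of 10 and 8 of 11 markers, against 41.7% of all features, and above both in 1, 0 and 1, against 13.6%. In these 3 lists C3 was the highest and C5 the lowest cryopreserved sample, as in *gapdh*, *pfkma*, *pfkl* and *hkdc1*, but the sums of early germ cell and leukocyte markers and the median of all features had the same order. Erythroid markers were at 1140, 433 and 153 CPM in C2, C3 and C5, against 312 and 292 CPM in F2 and F3. Of that sum in C2, *alas2*, whose groups overlapped, made up 637 CPM. Summed markers of muscle were at 491, 625 and 896 CPM against 823 and 746 CPM, those of leukocytes at 531, 545 and 408 CPM against 567 and 531 CPM, and those of early germ cells at 449, 714 and 310 CPM against 733 and 670 CPM. No marker was listed at 0 in every sample of a group, which does not show that each had reads. The part of these cell types in the values of the members was not tested.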

How the data were processed

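The table was deposited with 27416 features and 6 sample columns. The authors trimmed reads with Trimmomatic 0.39, mapped them with TopHat2 2.1.1 to the blue catfish genome and counted them per gene with HTSeq 1.0. The build and the strand setting of the counting are not given in the sources used here, so overlapping and antisense genes are uncertain and no coordinates are printed. The authors name the deposited values RPKM. Since the columns total between 992942 and 997458, they were taken as CPM. A deposited column of mean log2 CPM, which the authors made with edgeR, served as a check on that unit alone. Reads per gene are not listed, so no counting intervals are given.

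Technical replicates of C2 were averaged. limma 3.58.1 (R 4.3.3, trended prior) was run on log2(CPM + 1) without a block. TMM factors (trimmed mean of M values) were computed from the deposited values for rescaling. Figures and tables used Python 3.11.15, numpy 2.4.6, pandas 2.3.3, scipy 1.17.1 and matplotlib 3.10.9. Members and lists were chosen with earlier results of these data known, and the limma step was tested on simulated data. Named genes were *gapdh*, DEGs, the feature with the highest mean of each group in a step, the 3 largest and 3 smallest fold changes, and any above 2 or below -4. Members outside this rule are given to complete their steps and were chosen after their values were seen. RhoA and RhoB features were left out of the match to *rho*, also after their values were seen. Same-numbered samples come from 1 male. The differences F2 minus F3 and C2 minus C3 had a correlation of -0.02 over all features. Alternatives covered the pseudocount, filter, scaling, prior, block, technical replicates and each sample left out. F5 was not analysed here, and the values of 1 member are not reported here.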

Additional observations from a re-analysis of the deposited data

How the results depend on the processing

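With the male as a replicate block, 6 members were called higher and 0 lower, and the block turned no sign among the named members except that of *GPI* (0.086), in a fit that rests on males 2 and 3. The 4 calls made as deposited became 0 with a pseudocount of 0.1, with medians centred and with a constant prior, 2 with a group mean above 5 CPM, 2 with TMM factors and 8 with quantile normalization. Of all features, 0.572% were called higher with a pseudocount of 0.1 and 0% with medians centred or a constant prior. The share was 2.01% with TMM factors and 5.21% with quantile normalization, and 302 of 21727 features were called higher with a group mean above 5 CPM. Leaving out 1 cryopreserved sample gave 0 to 9 members called higher and 0 to 15 called lower, with the lowest counts of calls without C2 and the highest without C3. Of all features, 0% were called in either direction without C2, and 6.77% were called higher and 25.6% lower without C3. The median of the members turned to 0.71 (TMM), 0.64 (medians centred) and 0.23 (quantile), and the causes were not tested. With the same 3 scalings *GPI* turned to 0.76, 0.64 and 0.23 and *bpgm* to 0.57, 0.59 and 0.75. *Pgk1* turned to -0.033 with the first technical replicate of C2 alone. With 1 sample left out, the log2 fold change ran from -4.20 to -1.69 for *gapdh*, -0.84 to 0.086 for *GPI*, -0.16 to 0.28 for *tpi1*, -0.14 to 0.14 for *Pgk1*, -1.53 to 0.61 for *bpgm* and -0.29 to 0.63 for *pklr*. With the members of a pathway step only, chosen after seeing the data, there were 4 calls and the median was -0.41. Reads per library are not given in the deposited values, but the paper lists them. It gives fewer filtered reads for C2, C3 and C5 than for F2 and F3, with the fewest for C3. The part of depth in low values such as those of *pgam2* or *eno1* was not tested. With 2 samples against 3, no exact test could pass the threshold.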
